A study of Mus musculus with 24 samples.

Results

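The immunity-related GTPases described here are 7 mouse genes, Irgm1, Irgm2, Igtp, Iigp1, Tgtp1, Tgtp2 and Ifi47, taken as the rows of a gene expression table that carry exactly these symbols. They are 7 of the 54532 genes in the table. RNA sequencing was done on 24 libraries in 8 groups of 3. The cells were macrophages (BMDMs) or dendritic cells (BMDCs) cultured from bone marrow, the former in L929-conditioned medium and the latter in medium with IL-4 and GM-CSF, each from WT and CRE mice, and each as control (CT) or after DMXAA (DX), an agonist of mouse STING, given at 40 µM by the series description. The study's methods state DMXAA doses as mass per volume, so the concentration used here is uncertain. Both genotypes carried floxed Tmem173, the gene for STING, and received tamoxifen. WT cells came from Tmem173fl/fl mice without Cre, and CRE cells from Tmem173fl/fl mice in which a tamoxifen-inducible Cre (Creert2) was driven by the Lzym promoter, which is active in myeloid cells. The lysozyme promoter limits the deletion to cells that used it at the time of tamoxifen, and the labels give neither the length of DMXAA exposure nor the age of the mice. The labels do not say whether the libraries of a group came from separate mice, so p-values measure the spread between libraries, which may be technical.

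Immunity-related GTPases are large GTP-binding proteins that interferons switch on from very low levels, and in mice they defend cells against bacteria and parasites that live inside vacuoles. The regulators Irgm1, Irgm2 and Igtp (also called Irgm3) sit on the cell's own membranes and hold the effector GTPases inactive there. The effectors, among them Iigp1 (Irga6), Tgtp1 and Tgtp2 (Irgb6) and Ifi47 (Irgd), load onto the membrane of the pathogen's vacuole and help to break it. STING is the adaptor that senses cyclic dinucleotides made by cGAS and drives type I interferon genes through IRF3, and the interferon then acts through JAK kinases and a transcription factor complex that holds IRF9 on its target genes.

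To show which of the letters that these factors are known to read lie in front of the genes, the last 100 bases before the start site are given for the 6 members that could be matched to RefSeq on chromosome 11 (GRCm38.p6). Capitals mark the interferon-stimulated response element core GAAANNGAA and the gamma-activated site TTCNNNGAA, each searched on both strands in the window from 250 bases before to 50 bases after the start. The windows printed are chr11:48871421-48871520 on the minus strand for Irgm1, chr11:58214877-58214976 on the plus strand for Irgm2, chr11:58199456-58199555 on the plus strand for Igtp, chr11:48992247-48992346 on the minus strand for Tgtp1, chr11:49064213-49064312 on the minus strand for Tgtp2 and chr11:49076487-49076586 on the plus strand for Ifi47. All read 5′ to 3′ on the strand of the gene. A single RefSeq start per gene was searched. For Irgm1, Irgm2 and Tgtp1 the printed window lies inside the gene model given below, and other starts of these models were not searched.
Irgm1: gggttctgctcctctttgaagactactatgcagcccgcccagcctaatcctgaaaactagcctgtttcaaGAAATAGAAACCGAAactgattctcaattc
Irgm2: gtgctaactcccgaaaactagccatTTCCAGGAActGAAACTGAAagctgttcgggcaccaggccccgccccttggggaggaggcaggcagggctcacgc
Igtp: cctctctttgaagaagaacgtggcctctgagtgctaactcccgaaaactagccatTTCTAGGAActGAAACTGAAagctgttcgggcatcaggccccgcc
Tgtp1: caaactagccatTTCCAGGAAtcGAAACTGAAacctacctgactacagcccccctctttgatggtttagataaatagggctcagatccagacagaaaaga
Tgtp2: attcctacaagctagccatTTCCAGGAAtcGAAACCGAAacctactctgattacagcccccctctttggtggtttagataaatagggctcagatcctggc
Ifi47: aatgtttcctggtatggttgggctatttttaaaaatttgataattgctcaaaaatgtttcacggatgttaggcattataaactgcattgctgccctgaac

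In Irgm2, Igtp, Tgtp1 and Tgtp2 a gamma-activated site was followed by an interferon-stimulated response element core with 2 bases between them. Irgm1 held 2 overlapping response element cores and no gamma-activated site, and Ifi47 held neither in its window. Of 32851 promoter windows of this length, 8.56% held the response element core, 8.30% the gamma-activated site and 1.07% both. The 2-base spacing was looked for after the members' sequences had been seen, and 8 windows (0.0244%) held it, the 4 members among them. The others were Adar, Gm12185, Olfr382 and LOC115488470. Gm12185 is itself an immunity-related GTPase row and Adar encodes an RNA-editing enzyme that interferon raises. A match is a description of the letters and says nothing of whether a factor was bound in these cells.

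The genes lie in 3 places in GRCm38. Irgm1 (11:48861968-48871683), Tgtp1 (11:48985327-48994172), Tgtp2 (11:49057194-49064206) and Ifi47 (11:49076587-49096974) form one group on chromosome 11, Igtp (11:58199556-58207591) and Irgm2 (11:58199618-58222782) a second on the same chromosome, and Iigp1 (18:60376029-60392627) lies on chromosome 18. Some of these rows cannot be fully separated. Of the 50-base words in their annotated transcripts, 79.4% of those of Tgtp1 also occur in Tgtp2 and 85.8% of those of Tgtp2 in Tgtp1, so the split of reads between these near-identical copies is uncertain. The gene models of Igtp and Irgm2 overlap and share 11.8% of the words of Igtp, Gm12185 overlaps Tgtp1, and the Olfr56 model spans Tgtp1, Tgtp2 and Ifi47.

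The libraries held 15657347 to 18912887 reads counted to genes. The 4 BMDM libraries numbered 3, 1 in each BMDM group, did not look like macrophages. Summed over 8 macrophage markers they held 42.2 to 70.8 CPM (counts scaled to the library total), against 9610 to 21332 in the other 8 BMDM libraries. The 6 pan-leukocyte markers, Ptprc and Spi1 among them, summed to 0.06 to 2.03 CPM there, against 2770 to 3734, and 9 fibroblast markers to 12795 to 20414 CPM, against 33.3 to 532. In these 4 libraries Adgre1, Itgam, Fcgr1 and Ptprc stood at or near 0. Cd14, also on the macrophage list, stood at 34.5 to 55.7 CPM there and made up most of that sum. Of the fibroblast list, Lum and Fap reached at most 0.438 and 0.537 CPM. They were kept out of the BMDM tests and are given apart, and each BMDM result below rests on 2 libraries a group. The BMDCs held Itgax and Cd74 and 6114 to 10419 CPM over 8 dendritic cell markers, against 171 to 652 CPM in the 8 BMDM libraries, beside 2232 to 9318 CPM of macrophage markers. Each of the 12 BMDC libraries was closest, by the median absolute log2 difference over genes, to a library with the other genotype label. WT DX number 2 and CRE DX number 3 were the closest DX pair, at 0.113. DX libraries of different labels lay 0.113 to 0.483 apart and those of the same label 0.267 to 0.530, so the ranges overlap. The CRE BMDC libraries numbered 2 stood apart from the other BMDCs in their markers. They held 329 (CT) and 134 (DX) CPM over 8 neutrophil markers, against 42.5 to 63.8 in the other CT and 7.96 to 16.6 in the other DX libraries, and 2381 and 2232 CPM of macrophage markers, against 6236 to 9318 in the others. Tmem173 transcripts remained in the CRE libraries. Under DMXAA they stood at 31.8 and 22.8 FPKM (a read level scaled to transcript length and library size) in WT BMDMs and 9.12 and 10.1 in CRE BMDMs, and at 55.3, 34.6 and 35.9 in WT BMDCs and 33.2, 24.3 and 35.1 in CRE BMDCs, where the ranges overlap. In control BMDMs numbered 1 and 2 the ranges overlapped as well, at 14.7 and 9.91 FPKM in WT and 10.4 and 8.76 in CRE. The deleted part of the gene was not resolved by these gene-level values.

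In control cells the members fell into a set with clear transcript and a set close to nothing. Ifi47, Igtp, Irgm1 and Irgm2 stood between 1.90 and 9.09 FPKM in every control library of the BMDCs and of BMDMs numbered 1 and 2. Tgtp2, Tgtp1 and Iigp1 reached at most 0.385 FPKM in the same libraries. Under DMXAA all 7 were higher in every library. The control and DMXAA libraries of a member did not overlap in any of the 4 cell type and genotype combinations. The share of all genes that separate in this way is not given here, and with so few libraries a group separation alone is weak evidence. Levels per kilobase ran in nearly the same order in each DMXAA group, with Ifi47 first, Igtp second and Tgtp1 last. Irgm2 and Iigp1, at 81.7 ± 17.7 and 81.6 ± 22.0 FPKM in WT BMDCs (SD, n = 3), did not differ beyond their spread, nor did Igtp at 158.6 ± 44.4 and Irgm1 at 143 ± 9.4 FPKM.

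**Figure D1:**
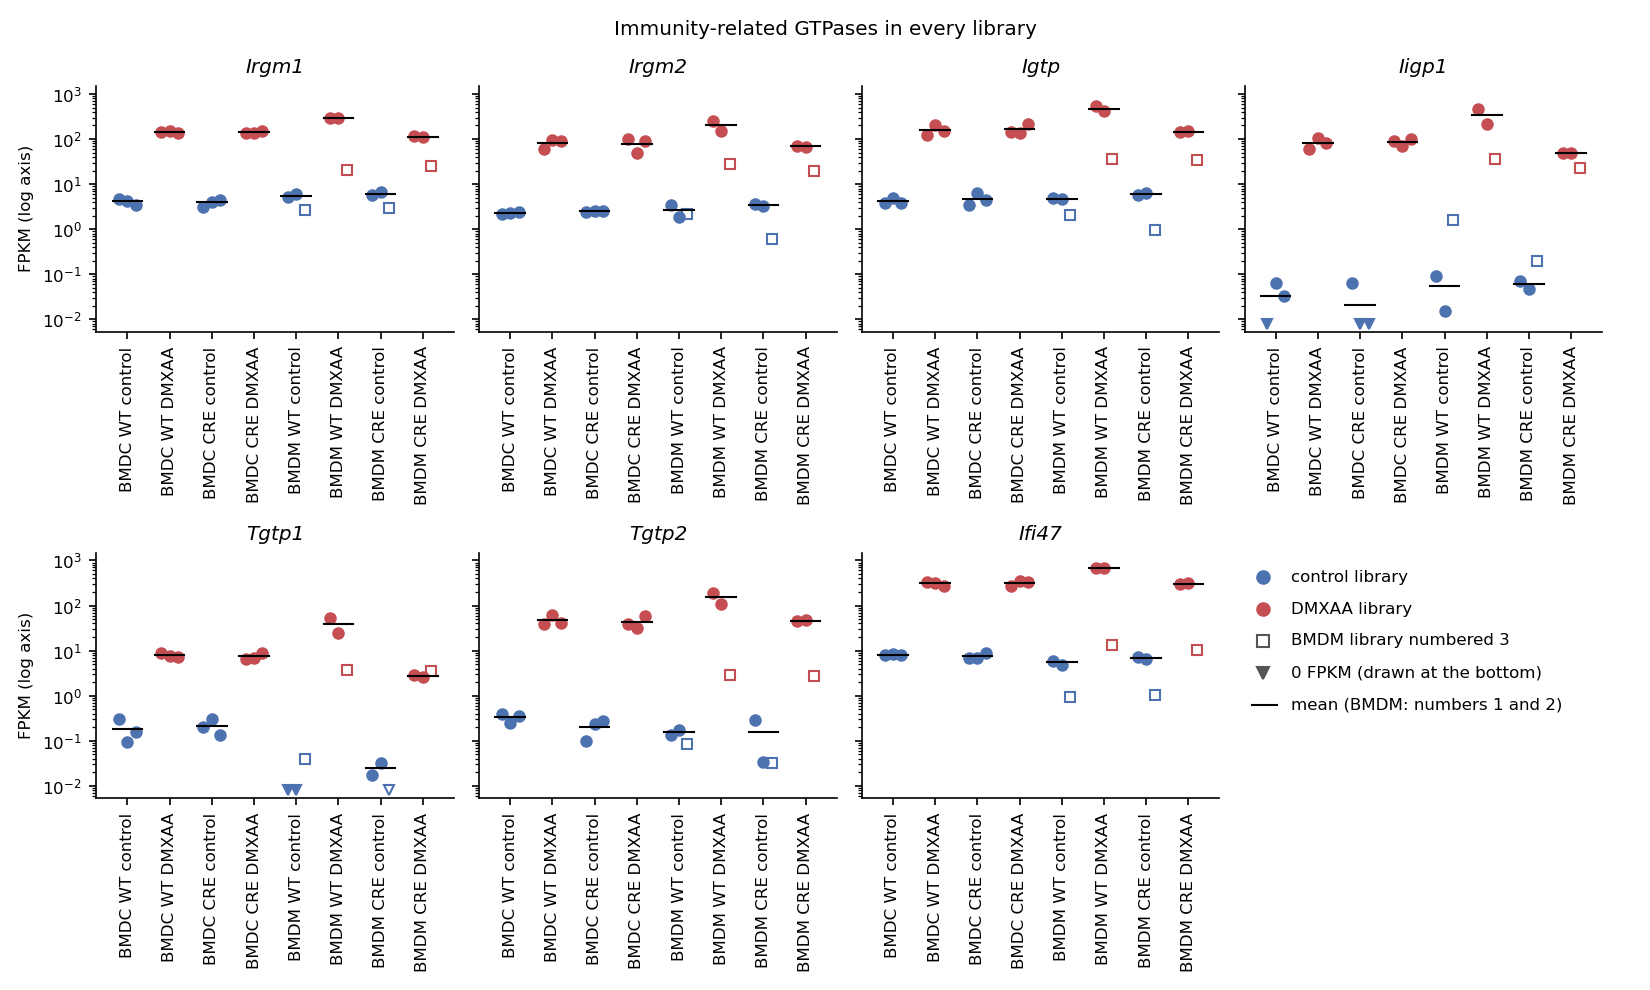
Level of each of the 7 immunity-related GTPases in all 24 libraries, in FPKM on a log axis, by group; points are libraries, bars are means, open squares are BMDM libraries numbered 3 and triangles at the bottom are libraries at 0. All DMXAA libraries lie above the control libraries of their group, and the 2 WT BMDM DMXAA points lie highest for every gene.

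Among the regulators, Irgm1 stood at 4.71, 4.26 and 3.43 FPKM in WT BMDC controls and at 140.2, 154 and 136 FPKM under DMXAA. In CRE BMDCs it went from 3.10, 4.10 and 4.55 FPKM to 139, 136 and 152 FPKM. In BMDMs the WT libraries went from 5.15 and 6.03 to 292 and 297 FPKM. The CRE libraries, from 5.71 and 6.54 to 115 and 112 FPKM, started level with WT and ended well below it. Irgm1 is the regulator best known for lysosome and mitochondrial membranes, and its replicates under DMXAA lay closest together among the regulators.

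Irgm2, a regulator of Golgi and vacuole membranes, was at 2.21, 2.24 and 2.44 FPKM in WT BMDC controls and at 61.4, 94.2 and 89.4 FPKM under DMXAA. The CRE BMDC values were 2.47, 2.57 and 2.49 FPKM and then 97.9, 47.9 and 89.7 FPKM, a spread that covers the WT values. The lowest of these, 47.9 FPKM, is from the CRE library numbered 2 that stood apart in its markers. In BMDMs the WT libraries rose from 3.50 and 1.90 to 254 and 154 FPKM and the CRE libraries from 3.58 and 3.30 to 71.0 and 65.9 FPKM. The 2 WT BMDM libraries under DMXAA differed from each other more for Irgm2 than for Irgm1, with number 1 the higher.

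Igtp, the regulator tied to the endoplasmic reticulum and lipid droplets, went in WT BMDCs from 3.79, 4.89 and 3.90 to 119.9, 207 and 149 FPKM. In CRE BMDCs it went from 3.48, 6.26 and 4.42 to 146, 134 and 211 FPKM. In BMDMs it reached 528 and 423 FPKM in WT, from 4.96 and 4.57, and 142 and 151 FPKM in CRE, from 5.86 and 6.28. Igtp was the second most abundant member per kilobase in every DMXAA group.

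Among the effectors, Iigp1 was close to 0 in these control libraries. Its control libraries held 0, 4 and 2 counts in WT BMDCs, 4, 0 and 0 in CRE BMDCs, 6 and 1 in WT BMDMs and 4 and 3 in CRE BMDMs. Under DMXAA it stood at 59.7, 104 and 81.3 FPKM in WT BMDCs and at 88.8, 69.9 and 98.8 FPKM in CRE BMDCs. In BMDMs the WT libraries stood at 472 and 221 FPKM and the CRE libraries at 48.2 and 48.3 FPKM. The lower of the WT values was still well above both CRE values.

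Tgtp1 was the least abundant member under DMXAA in the BMDCs and in the BMDMs numbered 1 and 2. Its WT BMDC libraries went from 0.303, 0.0953 and 0.159 to 8.91, 7.64 and 7.07 FPKM, and its CRE BMDC libraries from 0.198, 0.298 and 0.134 to 6.66, 6.88 and 8.74 FPKM. In WT BMDMs no count was found in either control library, and 1941 and 1123 counts, or 53.6 and 24.3 FPKM, were found under DMXAA. In CRE BMDMs 1 and 2 control counts became 152 and 135 counts, or 2.85 and 2.61 FPKM. A count of 0 in a library allows up to 3 counts there, by counting error alone.

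Tgtp2, its near-identical copy, was more abundant in every group but the CRE BMDC controls (BMDM libraries numbered 3 aside), where the means of both copies were close to 0.20 FPKM. It went from 0.385, 0.243 and 0.364 to 38.8, 62.3 and 41.1 FPKM in WT BMDCs and from 0.0999, 0.234 and 0.273 to 39.4, 31.0 and 57.4 FPKM in CRE BMDCs. In BMDMs it went from 0.133 and 0.177 to 192 and 110.3 FPKM in WT and from 0.285 and 0.0343 to 44.6 and 48.0 FPKM in CRE. Again WT number 1 was higher than WT number 2, and both were above CRE.

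Ifi47 was the most abundant member under DMXAA. It went from 8.20, 8.38 and 7.95 to 336, 323 and 272 FPKM in WT BMDCs and from 7.002, 6.73 and 9.09 to 272, 347 and 338 FPKM in CRE BMDCs. In BMDMs it went from 6.04 and 4.91 to 685 and 688 FPKM in WT and from 7.17 and 6.42 to 295 and 311 FPKM in CRE. Its 2 WT BMDM libraries were nearly equal, as were its 2 CRE libraries.

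The first question was which genes DMXAA changed in each kind of cell, tested with edgeR's quasi-likelihood test on the counts and Benjamini-Hochberg adjustment over all genes tested. All 7 members passed the filter on low values, and all 7 were called higher in each of the 4 responses. Iigp1, Tgtp1 and Tgtp2, at most 0.385 FPKM in the control libraries tested, passed it only through the DMXAA libraries where they were high. In WT BMDCs 7 of 7 rose, where 17.0% of 12126 genes were called higher and 15.2% lower. The median log2 fold change of the members was 5.22, against 0.01 over all genes tested. Irgm1, Irgm2, Igtp, Ifi47 and Tgtp1 rose by 5.10 ± 0.20, 5.13 ± 0.30, 5.22 ± 0.32, 5.22 ± 0.19 and 5.37 ± 0.37 (log2 fold change ± SE), a narrow band between 34.2-fold and 41.5-fold. Tgtp2 rose more, by 7.13 ± 0.40, and Iigp1 by 11.15 ± 0.64, which ranked it 9th of all genes. The adjusted p lay between 3.3e-08 for Ifi47 and 1.87e-06 for Tgtp1. Iigp1 had only 6 control counts, and its counting ratio was 1890 (exact 95% interval 868 to 5151, counting error only).

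In CRE BMDCs 7 of 7 members rose, where 14.0% of genes were called higher and 11.4% lower. The same 5 members rose by 4.94 ± 0.30 (Irgm2) to 5.36 ± 0.19 (Ifi47), Tgtp2 by 7.69 ± 0.42 and Iigp1 by 11.76 ± 0.67. The smallest adjusted p was 2.27e-08 for Ifi47 and the largest 2.57e-06 for Tgtp1, by edgeR's quasi-likelihood test. All 7 were also called without CRE CT number 2 and without CRE DX number 2, the libraries that stood apart in their markers. Same-numbered CT and DX libraries of a BMDC genotype deviated together, and with the library number as a block within genotype all 7 members were again called, while calls over all genes went from 3904 to 5911 in WT and from 3084 to 5181 in CRE.

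In WT BMDMs 7 of 7 rose, where 18.4% of 11569 genes were called higher and 20.7% lower. Irgm1 rose by 5.61 ± 0.16, Irgm2 by 6.13 ± 0.38, Igtp by 6.53 ± 0.17, Ifi47 by 6.86 ± 0.17, Tgtp2 by 9.79 ± 0.64 and Iigp1 by 12.47 ± 0.65. Tgtp1 was at least 549.7-fold higher, taking 3 counts in each control library as the floor. The counting ratio was 4005 (1944 to 9963) for Iigp1 and 614.3 (393.2 to 1021) for Tgtp2. Irgm1, Igtp and Ifi47 shared the lowest adjusted p, 7.32e-06.

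In CRE BMDMs 7 of 7 rose, where 7.28% of genes were called higher. Irgm1 rose by 4.19 ± 0.15, Irgm2 by 4.29 ± 0.35, Igtp by 4.57 ± 0.16, Ifi47 by 5.46 ± 0.16, Tgtp2 by 8.18 ± 0.62 and Iigp1 by 9.59 ± 0.62, with adjusted p from 2.4e-05 (Ifi47) to 0.000636 (Irgm2). Tgtp1 rose by 6.64 ± 0.66, from 3 counts to 287, a counting ratio of 92.7 (31.4 to 452.2) with an adjusted p of 0.00331 by edgeR. The response to DMXAA was thus present in CRE BMDMs for every member. The counts over all genes depend on the scaling. With library totals in place of edgeR's TMM factors the median over all genes moved to -0.36 and -0.34 in WT and CRE BMDCs and to -0.59 and -0.24 in WT and CRE BMDMs, and the calls became 1349 higher and 3754 lower, 1190 and 3322, 1400 and 5449, and 683 and 885. All 7 members were called higher under that scaling too.

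**Figure D2:**
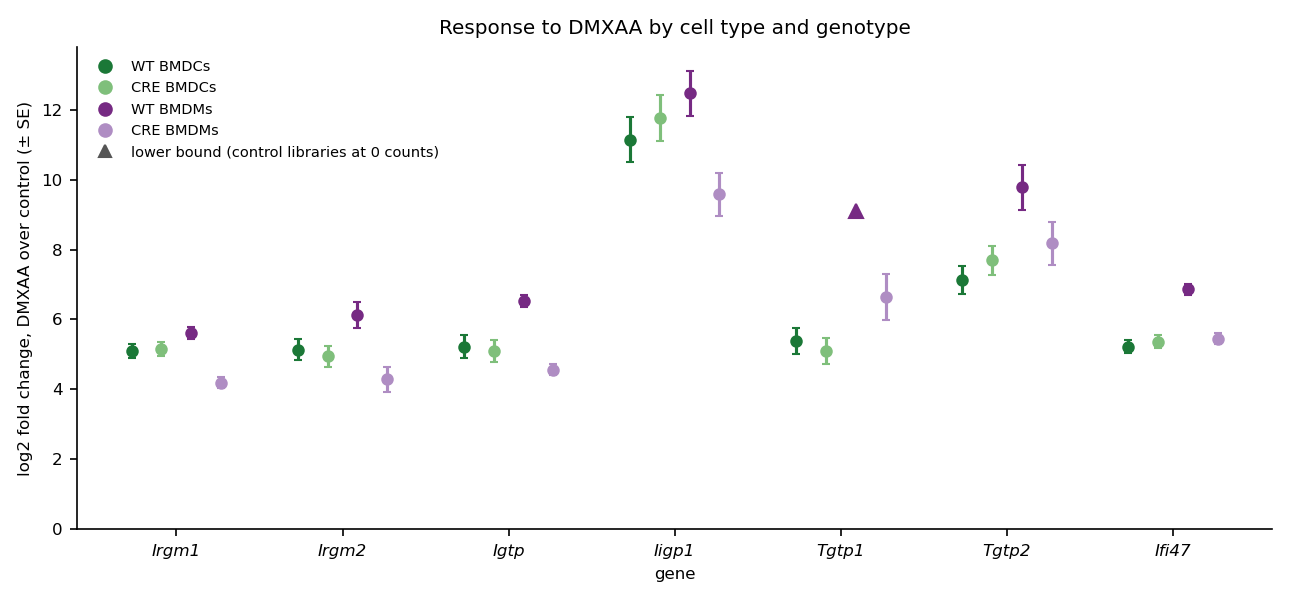
Log2 fold change of DMXAA over control (points, ± SE) for each gene in WT and CRE BMDCs and BMDMs by edgeR, with Tgtp1 in WT BMDMs as a lower bound because both control libraries held 0 counts. In BMDCs the WT and CRE points lie side by side; in BMDMs the CRE points lie below WT, from 4.19 for Irgm1 to 9.59 for Iigp1.

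The next question was whether these levels differed between the CRE and WT genotypes. Under DMXAA all 7 members were lower in CRE than in WT BMDMs and all 7 were called, where 9.99% of genes were called lower and 9.26% higher (2073 higher and 850 lower with library totals, the members all still lower). The 2 WT and the 2 CRE libraries did not overlap for any member, a separation not counted here over all genes. As a share of the WT mean, CRE BMDMs held 44.1% of Ifi47, 38.6% of Irgm1, 33.6% of Irgm2, 30.8% of Igtp, 30.6% of Tgtp2, 13.9% of Iigp1 and 7.02% of Tgtp1. The log2 difference, CRE minus WT, was -1.33 ± 0.14 for the regulator Irgm1 (adjusted p = 0.00205), -1.52 ± 0.31 for Irgm2 (0.0188) and -1.65 ± 0.14 for Igtp (0.00123) by edgeR's quasi-likelihood test. For the effectors it was -1.13 ± 0.13 for Ifi47 (adjusted p = 0.00302), -1.66 ± 0.42 for Tgtp2 (0.0364), -2.79 ± 0.39 for Iigp1 (0.00552) and -3.78 ± 0.40 for Tgtp1 (0.00385). With Tgtp1 and Tgtp2 summed into 1 row, which removes the split between the copies, the difference of the sum was -1.92 and was called.

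These calls rest on few libraries. Without CRE DX number 1 only Irgm1 and Igtp were called, without CRE DX number 2 Irgm1, Igtp and Ifi47, and without WT DX number 1 all but Irgm2 and Tgtp2, although every member stayed lower in each case. In BMDM samples as a whole, fewer responding cells and less RNA per cell cannot be told apart. Macrophage markers summed to 11377 and 13201 CPM in the WT and 9610 and 9740 CPM in the CRE DMXAA BMDMs, and fibroblast markers to 33.3 and 482 CPM in the WT and 33.8 and 37.3 CPM in the CRE libraries. Their part in the difference was not tested.

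**Figure D3:**
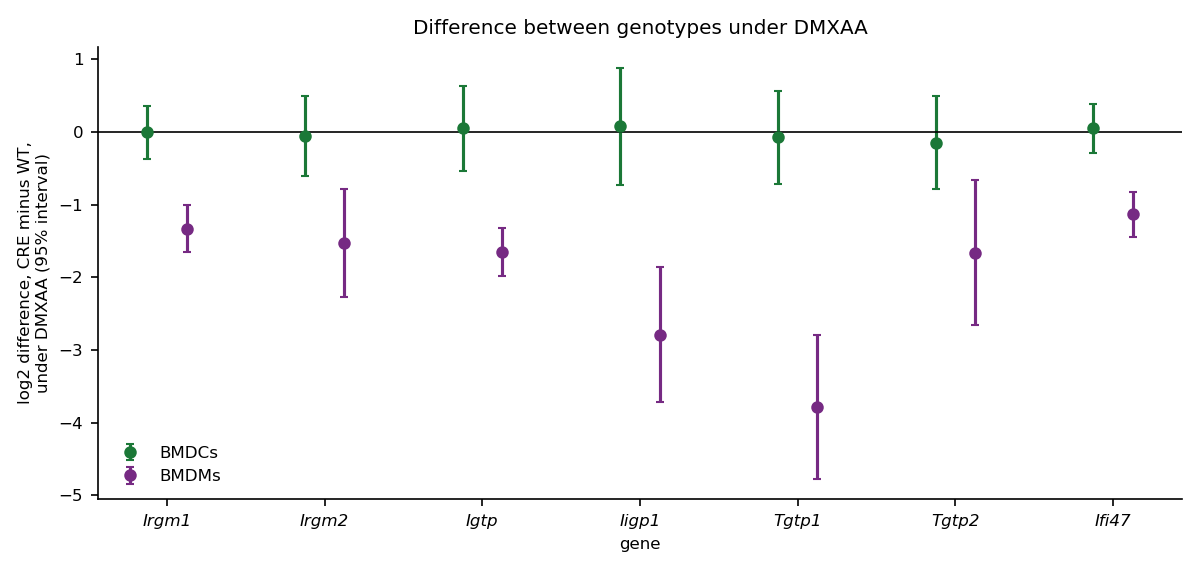
Log2 difference between CRE and WT cells under DMXAA (points, with 95% intervals) for each gene, in BMDCs and in BMDMs numbered 1 and 2, by edgeR. All BMDC intervals span 0; all BMDM intervals lie below it, from Ifi47 at -1.13 to Tgtp1 at -3.78.

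In control BMDMs no member was called between genotypes by edgeR or DESeq2, and none had an unadjusted p under 0.05 by edgeR (0.0432% of genes were called by edgeR, 5 genes, and 126 by DESeq2). For Irgm1, Irgm2, Igtp and Ifi47, the members with enough control counts, the log2 difference lay between 0.09 and 0.31, and that of Igtp was 0.31 with an interval from -0.03 to 0.65. The difference between the WT and CRE responses was tested directly as an interaction. The response was smaller in CRE BMDMs for Irgm1 (-1.42 ± 0.19, adjusted p = 0.0207), Igtp (-1.96 ± 0.20, 0.0115) and Ifi47 (-1.41 ± 0.19, 0.0207), by edgeR's quasi-likelihood test. These were 3 of 7 members, where 2.28% of genes were called lower (189 genes lower and 378 higher with library totals, the same 3 members called). The interaction of Irgm2 was -1.84 ± 0.45 (adjusted p = 0.0821). For Iigp1, Tgtp2 and Tgtp1, whose control counts are few or 0, it was -2.89 ± 1.24 (adjusted p = 0.258), -1.61 ± 0.94 (0.407) and -7.36 ± 2.19 (0.14) by edgeR. DESeq2 called 6 of the 7, all but Tgtp2. None of the 3 called by edgeR passed when any 1 of the 4 CRE libraries was left out, with the difference itself staying between -1.30 and -2.10 for the 3. The calls over all genes went from 424 to 0 without CRE CT number 1, CRE DX number 1 or CRE DX number 2 and to 2 without CRE CT number 2, and to 217 without WT DX number 1, 1267 without WT CT number 2 and 1347 without WT DX number 2.

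In BMDCs no difference between genotypes was called by edgeR for any gene under DMXAA (0% of 12126), in controls (0%) or in the interaction (0%). At an unadjusted p under 0.05 there were 108, 99 and 60 genes, and DESeq2 called 0, 0 and 1. Under DMXAA no gene was called by edgeR without CRE DX number 2 either. Under DMXAA the members' log2 differences ran from -0.15 for Tgtp2 (95% interval -0.78 to 0.49) to 0.08 for Iigp1 (-0.73 to 0.89). The narrowest intervals were those of Irgm1, -0.37 to 0.37, and Ifi47, -0.29 to 0.39. CRE BMDCs held 89.9% to 105.2% of the WT mean FPKM of each member. For each member the whole BMDC interval lay above the point estimate of the difference in BMDMs. That estimate has an error of its own, and for Tgtp2 the BMDM interval, -2.65 to -0.66, overlapped the BMDC interval. The BMDC and BMDM genotype differences were not tested against each other, and the nearness of BMDC libraries across genotype labels stands beside all of these values.

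Cell types were compared in WT cells. In controls Irgm1 was lower in BMDCs than in BMDMs (log2 difference -0.49 ± 0.17, adjusted p = 0.0402), Ifi47 was higher by 0.52 ± 0.17 (0.0321), and Tgtp1, with 34 counts in BMDCs and 0 in BMDMs, was at least 4.0-fold higher (0.000807), by edgeR's quasi-likelihood test. These were 2 higher and 1 lower of 7, where 13.1% of 13368 genes were called higher and 15.4% lower. The calls of Irgm1 and Ifi47 were both lost without a filter on low values, with the library number as a block, and without BMDC CT number 2 or BMDM CT number 2, and 1 of them was lost without any other of these 5 control libraries. Under DMXAA all 7 were lower in BMDCs, where 15.3% of genes were (2725 higher and 1470 lower with library totals). The WT BMDM mean was 2.05 times that of BMDCs for Irgm1, and 4.94 times for Tgtp1. The log2 differences ran from -0.99 ± 0.17 (Irgm1, adjusted p = 0.000378) to -2.25 ± 0.33 (Tgtp1, 0.000145) by edgeR. The 3 BMDC and 2 BMDM libraries did not overlap for any member, again without a count over all genes. Without BMDM DX number 1 the calls of Irgm2 and Tgtp2 were lost.

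The response itself differed between the cell types for 2 of 7 members, Ifi47 (-1.62 ± 0.24, BMDC minus BMDM, adjusted p = 0.00178) and Tgtp1 (-8.61 ± 1.10, 0.000754, a fitted value that rests on the 0 counts of BMDM controls), where 1.73% of genes were called lower. With library totals 144 genes were called higher and 177 lower. Igtp and Tgtp2 were called too without BMDC DX number 2, and Tgtp2 without BMDM DX number 2. For the others the difference ran from -0.49 ± 0.24 for Irgm1 (adjusted p = 0.398) to -2.63 ± 0.71 for Tgtp2 (0.0663), by edgeR. The culture medium and its growth factors differ with the cell type and cannot be told apart from it here.

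The makeup of the family, as each gene's share of the 7 genes' summed FPKM, was similar in WT and CRE BMDCs under DMXAA and differed in BMDMs. The sum itself was 831 ± 105 FPKM in WT BMDCs, 839 ± 101 in CRE BMDCs (SD, n = 3), 2196 ± 395 in WT BMDMs and 728 ± 13.7 in CRE BMDMs (SD, n = 2). Ifi47 made up 37.6% ± 5.5 and 38.2% ± 5.8 in WT and CRE BMDCs, and 31.8% ± 5.8 and 41.6% ± 0.7 in WT and CRE BMDMs. Iigp1 made up 9.73% ± 1.68 and 10.2% ± 1.1 in BMDCs, 15.3% ± 5.3 in WT BMDMs and 6.63% ± 0.12 in CRE BMDMs. The shares were not tested, and 2 libraries a group give a rough spread.

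**Figure D4:**
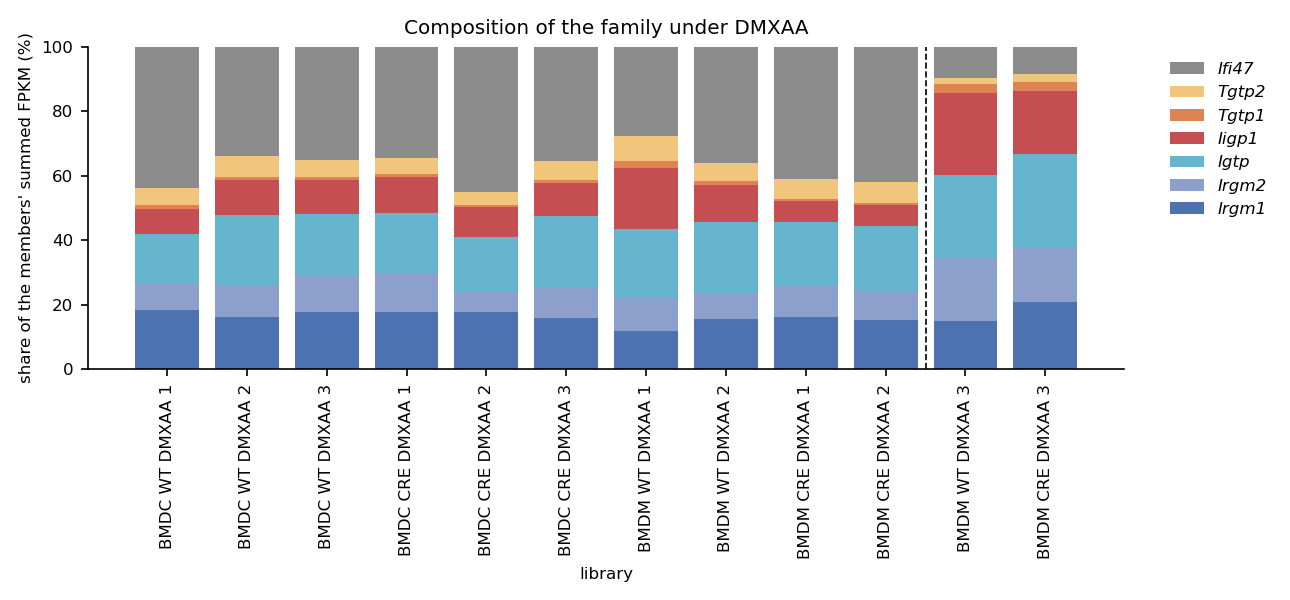
Share of each gene in the summed FPKM of the 7 genes, in percent, for each DMXAA library; libraries right of the dashed line are the 2 BMDM libraries numbered 3. Ifi47 takes the largest share in every library left of the line, while in the 2 on the right it takes 9.60% and 8.50%.

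The 4 BMDM libraries numbered 3, with fibroblast markers in place of leukocyte markers, gave a response of their own, described without a test since there is 1 library of each kind. All 7 members were higher under DMXAA in the WT and in the CRE pair. Irgm1 went from 2.73 to 21.1 FPKM in WT and from 2.91 to 24.8 in CRE, or 7.71-fold and 8.52-fold. Igtp went from 2.06 to 36.1 FPKM and from 0.957 to 34.8 FPKM, or 17.5-fold and 36.4-fold. For Irgm1 and Igtp the levels reached were below those of the other WT and CRE BMDM libraries under DMXAA.

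Iigp1, close to 0 in the other control libraries, held 120 counts (1.62 FPKM) in the WT control numbered 3 and 13 counts (0.197 FPKM) in the CRE control. It reached 36.0 and 23.1 FPKM under DMXAA, a share of 25.6% and 19.4% of the family. Ifi47, first in all other DMXAA groups, reached only 13.5 and 10.1 FPKM there. Irgm2 reached 27.6 and 20.03 FPKM, Tgtp1 3.75 and 3.47 FPKM, and Tgtp2 2.86 and 2.74 FPKM, so that Tgtp2 was here no more abundant than its copy.

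The other genes of the pathway place these values. Over all genes, 17.0% were called higher in WT BMDCs, 14.0% in CRE BMDCs, 18.4% in WT BMDMs and 7.28% in CRE BMDMs. Called lower were 15.2%, 11.4%, 20.7% and 2.72%, and 9.99% were lower in CRE than in WT BMDMs under DMXAA. These shares stand beside each count in the lists below. Of 12 other immunity-related GTPase rows, 7 of 10 tested rose in WT BMDCs, 8 of 10 in CRE BMDCs, 8 of 9 in WT BMDMs and 6 of 9 in CRE BMDMs. Gm12250, the nearest neighbour of Igtp and Irgm2 among them, rose by 5.87 ± 0.28, 5.94 ± 0.28, 7.40 ± 0.30 and 5.56 ± 0.28 on the log2 scale. Of the 9 tested, 3 (Gm12250, Gm12185 and Gm4841) were lower in CRE than in WT BMDMs under DMXAA, with a log2 difference of -1.70 ± 0.23 for Gm12250 (adjusted p = 0.00481 by edgeR). Of 5 guanylate-binding proteins, the partner GTPases that act at the same vacuoles, all 5 rose in all 4 responses, and 4 were lower in CRE BMDMs under DMXAA. Gbp2 rose by 4.53 ± 0.35 and 4.59 ± 0.35 in WT and CRE BMDCs and by 9.44 ± 0.44 and 7.42 ± 0.41 in WT and CRE BMDMs.

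Among the ligands, Ifnb1, the gene for interferon beta, had 0 counts in all BMDC control libraries and in the control BMDMs numbered 1 and 2. Under DMXAA it held 612, 400 and 634 counts in WT BMDCs and 548, 237 and 528 in CRE BMDCs. In BMDMs it held 21 and 208 counts in WT and 0 and 1 in CRE, and the DMXAA libraries numbered 3 held 0 in both genotypes, where the WT control numbered 3 held 2. At the time of harvest CRE BMDMs thus held next to no Ifnb1 transcript. How Ifnb1 relates to the members' levels was not tested. Ifng, the gene for interferon gamma, did not pass the filter, with 0 to 14 counts in BMDC libraries and 0 in BMDMs, and the 8 T and natural killer cell markers summed to at most 6.26 CPM.

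Of 4 interferon receptor chains, Ifngr1 fell in WT BMDCs (-1.22 ± 0.19), CRE BMDCs (-0.98 ± 0.19) and WT BMDMs (-0.91 ± 0.29, not called with median-of-ratios scaling). Ifnar2 rose in both BMDC genotypes, by 0.45 and 0.40, and Ifngr2 in WT BMDCs and WT BMDMs, by 0.58 and 0.52, but these 4 small rises were not called with library totals. Of 3 JAK kinases, 1 rose in each BMDC genotype, 3 in WT and 2 in CRE BMDMs. Jak2, the kinase of the interferon gamma receptor, rose by 3.79 ± 0.23 in WT BMDMs and 1.82 ± 0.22 in CRE BMDMs. Its interaction of -1.97 ± 0.30 was called (adjusted p = 0.0263 by edgeR). Interaction calls in BMDMs rest on 2 libraries a group, and the dependence on single CRE libraries given above covers this call too.

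Of the 5 transcription factors given here (Stat2, Irf1, Irf7, Irf8 and Irf9), all 5 rose in both BMDC genotypes and 4 in both BMDM genotypes, Irf8 being the exception at 0.02 and 0.14. Irf1, an interferon-induced activator, rose by 4.37 ± 0.30, 4.05 ± 0.30, 4.77 ± 0.16 and 2.53 ± 0.15 in WT and CRE BMDCs and WT and CRE BMDMs. Irf1 was lower in CRE BMDMs under DMXAA, with a log2 difference of -2.10 ± 0.15 (adjusted p = 0.00111 by edgeR), with an interaction of -2.25 ± 0.20 (0.0105). That interaction call has the same dependence on single CRE libraries. Irf9 and Irf7 were lower in CRE BMDMs, at -0.71 ± 0.12 and -0.89 ± 0.22, that of Irf7 not called with library totals.

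Both feedback genes rose in all 4 responses. Socs1, which blocks JAK kinases, rose by 1.10 ± 0.22 and 1.12 ± 0.22 in WT and CRE BMDCs and by 5.98 ± 0.53 and 2.70 ± 0.51 in WT and CRE BMDMs, and Usp18, which blocks the type I interferon receptor, by 6.48, 6.03, 8.64 and 7.45. Both were lower in CRE BMDMs under DMXAA, with log2 differences of -3.97 ± 0.47 and -2.09 ± 0.29.

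Of 9 genes of the autophagy conjugation machinery, which places the GTPases on vacuoles, only Atg7 was called in BMDCs, and it fell there (-1.01 ± 0.16 in WT and -0.67 ± 0.16 in CRE). In WT BMDMs Atg7 fell (-0.76 ± 0.12), Atg16l1 rose by 1.11 ± 0.12, and Atg3 rose by 0.44 ± 0.13, a direction that turned to -0.07 with library totals. In CRE BMDMs none of the 9 was called. Of 3 genes of the ubiquitin route to the vacuole, all 3 rose in both BMDC genotypes, and the ubiquitin ligase Trim21 rose by 3.51 ± 0.16 and 3.44 ± 0.16 there. Trim21 rose by 4.35 ± 0.26 in WT and 2.01 ± 0.24 in CRE BMDMs, and its interaction of -2.34 ± 0.33 was called (adjusted p = 0.0218 by edgeR). This call too depends on single CRE libraries, as given above for BMDM interactions.

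On chromosome 11, genes within 100000 bases of either group of members were compared with them. Of other genes there, 3 of 11 tested rose and 1 fell in WT BMDCs, where 17.0% of all genes were called higher and 15.2% lower. In WT BMDMs 2 of 10 rose and 4 fell, where 18.4% of all genes were called higher and 20.7% lower. The risers were Psme2b and Olfr56 in both cell types and Gm12188 in BMDCs. Zfp692 fell in both cell types, and Gemin5, Zfp672 and Gm12184 fell in BMDMs. Olfr56, whose model spans 3 members, had log2 fold changes of 6.18 and 9.03, and Psme2b had 1.76 and 2.62. Close housekeeping neighbours such as Rack1 (0.14 in BMDCs, -0.06 in BMDMs), Trim41 (0.09 and 0.20) and Cnot8 (0.07 and 0.23) were not called. Beside the immunity-related GTPase rows, the largest log2 fold changes in these windows were thus at Olfr56 and, in BMDCs, at Gm12188 (5.35), a pseudogene model that lies inside Ifi47.

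**Figure D5:**
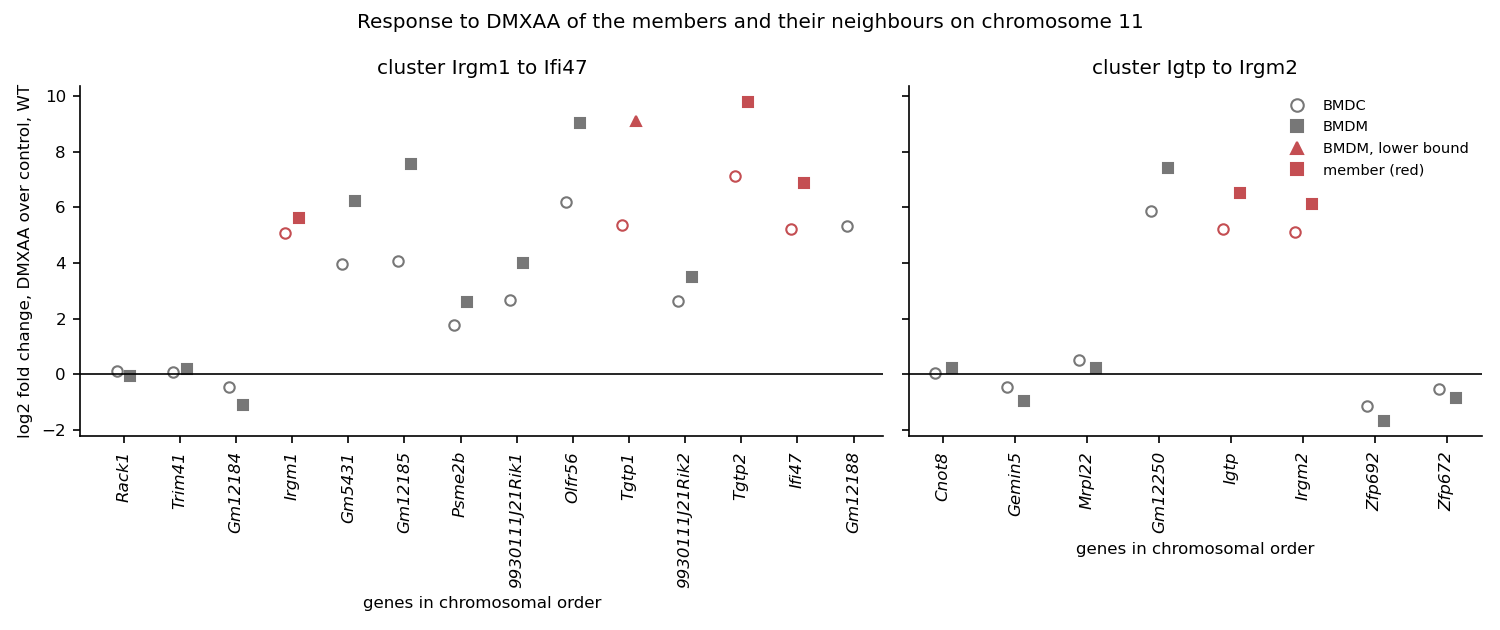
Log2 fold change of DMXAA over control in WT BMDCs (open circles) and WT BMDMs (squares) for the members (red) and their neighbours (grey) in order along chromosome 11, with Tgtp1 in BMDMs as a lower bound (triangle). Members lie above 5; Rack1, Trim41 and Cnot8 lie between -0.06 and 0.23.

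The genes whose 8 group means were most like the mean pattern of the members, by the root mean square difference of centred log2(FPKM + 1) among 8208 genes, were Ifi208 (0.203), Ifih1 (0.215), Gm4951 (0.283), Ifi203 (0.292) and Ddx58 (0.295). The members themselves lay between 0.118 for Igtp and 1.02 for Tgtp1, so that Ifi208 was closer to the family's mean pattern than 6 of the 7 members were. Ifih1 and Ddx58 encode the RNA sensors MDA5 and RIG-I, and Gm4951 is itself an immunity-related GTPase row. Ifih1 stood at 102 FPKM in WT BMDCs and 194 FPKM in WT BMDMs under DMXAA.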

How the data were processed

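RNA was extracted with TRIzol and poly(A) libraries were made with the NEBNext Ultra kit, per the labels. The submitters' processing notes name CASAVA 1.8, fastp, HISAT2 2.0.5, featureCounts 1.5.0-p3, DESeq2 1.20.0 and GRCm38/mm10, with no role or order; strand is not given in the sources used here. The authors deposited 1 table with raw counts per gene and FPKM, both used here; its columns of the authors' comparisons (fold changes, p-values, means) were not used. All 48 per-sample columns matched a sample by name. The FPKM are scaled by effective library sizes, 0.687 to 1.33 times the totals.

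Counts were tested in R 4.3.3 with edgeR 4.0.16 (quasi-likelihood, TMM, all groups of a cell type in 1 fit), after a filter of FPKM of at least 1 in at least 3 of 12 BMDC or 2 of 8 BMDM libraries (2 of 20 for both). Genes with an adjusted p under 0.05 (Benjamini-Hochberg) were called. The fit was tested on simulated data: of 200 genes changed 4-fold, 73.0% were recovered with 5 false calls among 12126 genes for the WT BMDC response, and 81.5% with 5 among 11569 for WT BMDMs. Same-numbered CT and DX libraries correlated in their deviations within BMDC genotypes (0.395 to 0.677) and not across them. The numbers may thus pair CT with DX within a BMDC genotype. In BMDMs, with 2 libraries a group, the correlation was 0.656 in WT and 0.031 in CRE. The main tests used no pairing, and blocks by library number were tried only as alternatives. Promoters came from RefSeq (GRCm38.p6) and shared words from GENCODE vM21 transcripts. Named genes were the members, pathway lists by role, and the 5 genes of most like pattern reaching a group mean of 5 FPKM or more. Members and lists were chosen with earlier results of these data known. Alternatives were DESeq2 1.42.0, other scalings and filters, replicate blocks, and leaving out each library. One gene of the transcription factor list is not reported here.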

Additional observations from a re-analysis of the deposited data

Results flagged for a closer look

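The response to DMXAA was called different between WT and CRE BMDMs, by an interaction test in edgeR, for Irgm1 (log2 difference -1.42), Igtp (-1.96) and Ifi47 (-1.41). These calls did not hold when a CRE library was left out, as given above. Irgm2 (-1.84), Iigp1 (-2.89), Tgtp1 (-7.36) and Tgtp2 (-1.61) had estimates in the same direction and were not called. The response was called different between WT BMDCs and WT BMDMs for Ifi47 (-1.62) and for Tgtp1 (-8.61, fitted against BMDM controls with 0 counts). In the BMDM libraries numbered 3, which no test used, 7 of 7 members were higher under DMXAA in the WT pair and 7 of 7 in the CRE pair; this was not tested, with 1 library of each kind. No member's value in a single library stood apart in a way that was looked for here, since all groups hold 3 libraries or fewer.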

How the results depend on the processing

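Of the members' values under alternatives, 891 kept their direction and their side of the threshold, 77 lost the call, 23 gained it and 7 turned. The turned values were near 0 or on few counts, apart from Iigp1 in the cell type interaction. That value turned with the BMDM libraries numbered 3 included, whose WT control held 120 counts of Iigp1. With all BMDM libraries, number 3 included, no member was called (0) in the WT or CRE BMDM response, in CRE against WT BMDMs under DMXAA, in the BMDM interaction, in BMDCs against BMDMs under DMXAA or in the cell type interaction, and 1 in BMDCs against BMDMs in control. Of all genes tested, 0 were called in those BMDM fits and in the cell type interaction, and 1324 and 1169 for BMDCs against BMDMs under DMXAA and in control. The markers of those libraries are given above. In the BMDM interaction 6 members were called by DESeq2, 7 without a filter and 6 with a replicate block within genotype (4 with a plain block), and 0 to 5 with 1 library left out. The counts with 1 library left out were 2 to 7 for CRE against WT BMDMs under DMXAA, 1 to 2 for BMDCs against BMDMs in control and 2 to 4 for the cell type interaction. BMDCs against BMDMs in control gave 1 without a filter, with a replicate block, with a 2-fold rule added or with the compared groups only. The cell type interaction gave 4 by DESeq2 and 4 without a filter. The cause was not tested.

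Turned values were the lowest of 4 members in control BMDMs (-0.01 with all BMDM libraries, -0.05 to 0.19 with 1 library left out), the highest of 7 members in CRE against WT BMDCs under DMXAA (-0.01 to 0.29), the Tgtp2 interaction in BMDMs (-2.50 to 0.46, the latter without CRE CT number 1) and Iigp1 in the cell type interaction (2.44 with all BMDM libraries).

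Calls over all genes moved by more than 1.5 times with a 2-fold rule added (3904 to 2362 in WT BMDCs, 3084 to 1841 in CRE BMDCs, 4531 to 2879 in WT BMDMs, 1157 to 718 in CRE BMDMs, 2227 to 1299 for CRE against WT BMDMs under DMXAA, 3812 to 2506 and 4092 to 2655 for BMDCs against BMDMs in control and under DMXAA) and with the compared groups only (1853 in CRE BMDCs, 1687 in WT BMDMs, 6389 in CRE BMDMs, 0 from 5 in control BMDMs, 196 from 349 in the cell type interaction). DESeq2 gave 1908 in CRE BMDMs, 126 in control BMDMs, 1195 from 424 in the BMDM interaction and 738 in the cell type interaction. Without a filter these were 2120, 700, 1342 and 836, with 3630 for CRE against WT BMDMs under DMXAA and 2 and 2 for the BMDC genotype difference under DMXAA and the BMDC interaction. The replicate block within genotype gave 2920 in CRE BMDMs and 1702 in the BMDM interaction, and it changed no other call of a member. Library totals, chosen after seeing the data, gave 6849 in WT BMDMs. With 1 CRE library left out the CRE BMDM response had 248 to 321 calls and CRE against WT BMDMs under DMXAA 313 and 316. With Tgtp1 and Tgtp2 summed, 6 of 6 rows were called in each response. With 2 libraries a group and few control counts, differences in the response of Iigp1, Tgtp1 and Tgtp2 were poorly resolved.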
